A study of Mus musculus with 16 samples.

Results

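The cytochrome P450 enzymes of families 1 to 3 oxidise drugs, steroids, fatty acids and bile acids in the liver. The members described here are all genes whose platform symbol begins with Cyp1, Cyp2 or Cyp3 followed directly by a letter and a digit, with the brightest probe set kept for each gene. The rule found 59 genes among the 19505 with a probe set named for a single gene. Probe sets named for several genes were left out, so a P450 gene read only by such a probe set is absent. They were compared between 8 control livers and 8 livers of a mouse model of nonalcoholic steatohepatitis (NASH), in which fat build-up in the liver is joined by inflammation. All 16 samples are liver biopsies on the C57BL/6 background, and each was read as biotin-labelled total RNA on an Affymetrix-type array. The labels name one group Control and the other NASH model. They state no sex, age, diet, treatment or collection time, and they do not say how the disease was induced. Both groups keep the numbers of their labels, which include NASH model 1a and 1b. The study's title concerns stimulation of soluble guanylate cyclase, and the samples analysed here hold no group labelled as treated.

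P450 enzymes sit in the endoplasmic reticulum of hepatocytes, where each takes electrons from P450 reductase and inserts oxygen into its substrate at a haem iron. The families are set by sequence likeness, and in the mouse the genes of a subfamily lie side by side in clusters that grew by duplication. Several are switched on by chemical sensors, namely the aryl hydrocarbon receptor for Cyp1 genes, the constitutive androstane receptor (Nr1i3) for Cyp2b genes and the pregnane X receptor (Nr1i2) for Cyp3a genes. Others differ between male and female mice under the control of growth hormone and the factor Stat5b.

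Values are log2 array signals, and a difference is the NASH model mean minus the control mean on that scale, with its standard error (SE). A gene was called higher or lower where limma's adjusted p was under 0.05 over all 19505 genes. A signal of 2.89 was taken as the background floor, the 95th percentile of olfactory and vomeronasal receptor genes, which serve as genes assumed silent in liver. Array signals near that floor compress differences, so small folds there understate the change. Probe sets of near-identical genes can catch each other's RNA, which leaves the values of paralogs less certain. In such bulk samples, fewer cells of a type and less RNA per cell cannot be told apart.

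Hepatocyte markers were bright in both groups. The mean level of 12 measured hepatocyte markers ran from 11.81 to 11.85 in the controls and from 11.76 to 11.85 in the NASH model, and albumin (Alb) was at 12.62 and 12.64. Of these 12, 0 were called higher and 2 lower. Such bright markers lie close to the highest value in the table, 12.74, where arrays compress differences. Similar means therefore cannot show an equal share of hepatocytes. Markers of other liver cells differed between the groups. The mean of 12 macrophage markers ran from 5.79 to 6.64 in the controls and from 7.72 to 8.06 in the model, with 10 higher and 2 lower. For 12 stellate cell and fibroblast markers the ranges were 5.20 to 5.73 and 6.67 to 7.42, with 11 higher and 0 lower. Of 8 cholangiocyte markers 5 were higher, and of 9 endothelial markers 2 were higher and 5 lower. Among 9 lymphocyte and neutrophil markers 5 were higher and 1 lower. Over all genes, 13.2% were called higher and 13.4% lower. The part of these other liver cells in the P450 values was not tested. Libraries also stood apart within the groups. NASH model 2 and 7 were both below the other 6 model samples in 21 of the 54 members with a sample at or above the floor (38.9%), against 7.36% of all such genes. A score of 17 circadian clock genes was 2.54 in control 5, ran from -3.62 to 0.59 in the other controls and ran from 1.06 to 2.38 in the model. The score thus largely separated the groups, so a call lost with it as a covariate can reflect a wider SE. Calls that change without NASH model 2 and 7, and changes with the clock score or without control 5, are given beside the gene or in the closing section.

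More P450 genes were lower than higher in the NASH model. Of 59 members, 27 were called lower (45.8%), where 13.4% of all genes were, and 13 were called higher (22.0%), where 13.2% of all genes were. The other 19 were not called. A call with a change of at least 2-fold was found in 8 members upward (13.6%, against 4.02% of all genes) and in 9 members downward (15.3%, against 1.19%), by fitted values that were not raised to the floor. Without NASH model 2 and 7, Cyp2c37 (-0.64), Cyp2c54 (-0.80), Cyp2d37-ps (-0.84) and Cyp2d40 (-0.94) fell short of 2-fold downward. Cyp1b1 (0.93) and Cyp2b10 (0.90) then fell short of 2-fold upward, and each of these genes kept its call. All 8 model samples lay above all 8 controls in 6 members (10.2%, against 5.65%), and below them in 13 (22.0%, against 3.89%). The median difference was -0.36 over the members and -0.04 over all genes. Of the members, 5 were below the floor in all 16 samples, namely Cyp2b19, Cyp2j8, Cyp2j11, Cyp2j12 and Cyp3a16. Among the 54 others, 12 were called higher and 26 lower (22.2% and 48.1%), against 16.2% and 16.2% of the 15675 genes with a sample at or above the floor. Array scaling moved the counts over the 59 members: centring on array medians gave 11 higher and 31 lower, and centring on the hybridization spike-ins gave 13 and 20. The counts over all genes moved too, from 2577 higher and 2619 lower in the main fit. They were 2355 and 3646 with array medians centred, and 3307 and 1179 with the spike-ins.

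The calls were spread unevenly over the subfamilies. The Cyp2a and Cyp2b genes held 7 of the 13 higher calls and the Cyp3a genes held 5. The Cyp2c and Cyp2d genes held 16 of the 27 lower calls and no higher call. Family 1 had 1 gene called higher and 1 lower of 3, family 2 had 7 higher and 24 lower of 47, and family 3 had 5 higher and 2 lower of 9.

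**Figure D1:**
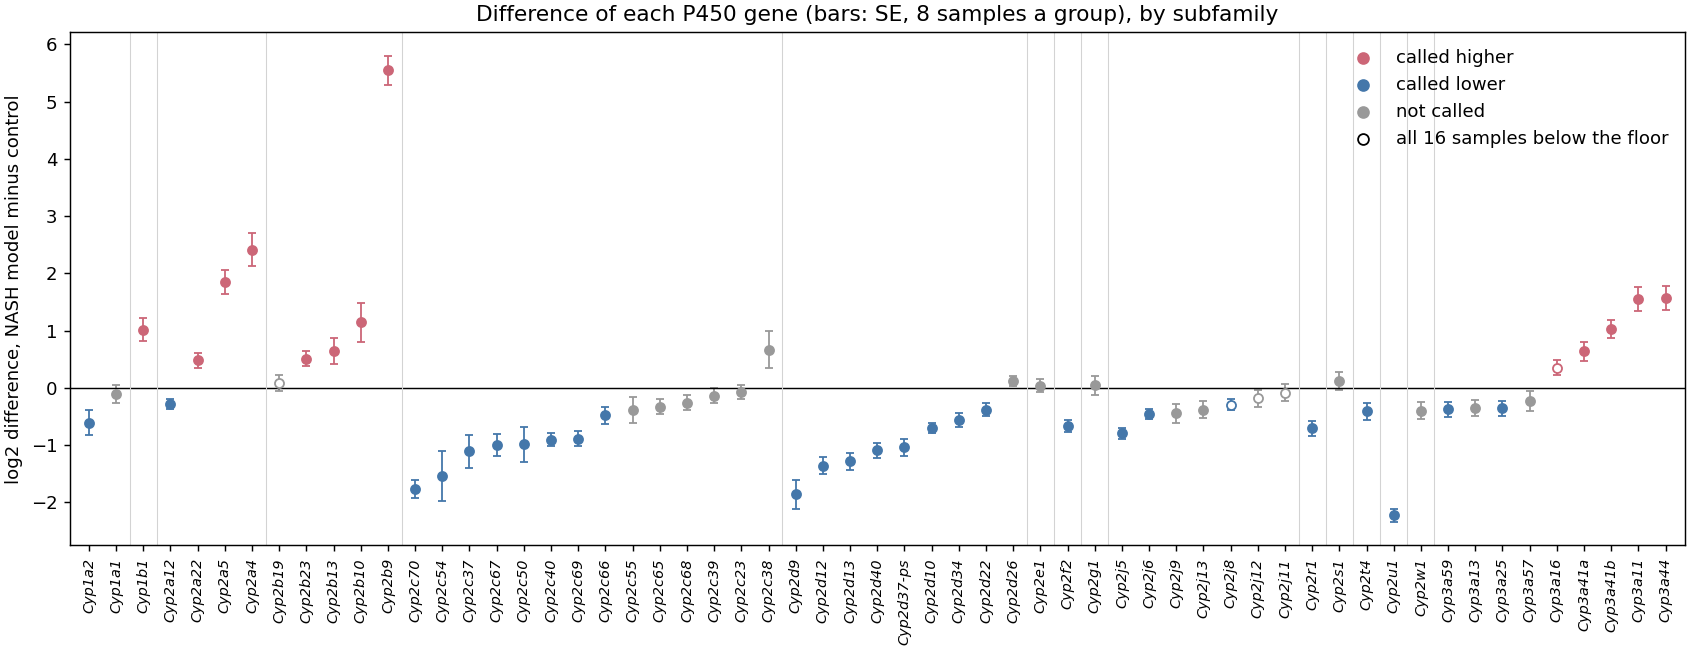
Log2 difference (NASH model minus control, vertical axis) for each of the 59 P450 genes, ordered by subfamily and then by difference. Points are limma estimates from 8 samples a group, bars are SE, colour gives the call, and open points mark genes below the floor in all 16 samples. Cyp2b9 stands at 5.55 and Cyp2u1 at -2.23, and the Cyp2d points lie below 0 apart from Cyp2d26 at 0.11.

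In the Cyp2b subfamily, whose best-known member Cyp2b10 is the phenobarbital-inducible target of the constitutive androstane receptor, 4 of 5 genes were called higher and 0 lower. Their median difference was 0.65. Cyp2b9, a steroid hydroxylase expressed mainly in female mouse liver, had the largest change of any member. Its controls ran from 1.96 to 3.76 with a median of 2.58, and the NASH model samples ran from 7.72 to 9.09 with a median of 8.12. The lowest model sample thus lay far above the highest control, and 5 of the 8 controls were below the floor. The means were 2.76 ± 0.63 (SD, n = 8) and 8.30 ± 0.53 (SD, n = 8). The fitted difference was 5.55 ± 0.26 (SE), with an adjusted p of 6.47e-12. Because the control mean itself is below the floor, the fold is given with each control raised to the floor, as at least 36.8-fold higher.

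Cyp2b13, another female-biased gene, lies next to Cyp2b9. It ran from 1.95 to 2.82 (median 2.30) in the controls, all below the floor, and from 2.18 to 4.43 (median 2.87) in the model, where 4 samples were below it. Its difference was 0.65 ± 0.23 (SE), from 2.35 ± 0.28 to 2.99 ± 0.67 (SD, n = 8 each), with an adjusted p of 0.0417. Against the floor this is at least 1.07-fold higher, a bound that sets the model mean against the controls with their values raised to the floor. NASH model 2 held the highest value. Without it and NASH model 7 the difference was 0.43 and the adjusted p 0.0745. The call was also lost on leaving out 1 sample in 9 of 16 cases.

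The RefSeq promoters of both genes are shown because the windows are nearly the same while the differences above were 5.55 and 0.65. For Cyp2b13, 8 controls and 4 model samples were below the floor, so the size of its difference is less certain. In GRCm38.p6 the 250 bases before the start lie at chr7:26173159-26173408 for Cyp2b9 and chr7:26061245-26061494 for Cyp2b13, both on the plus strand. They share 248 of 250 bases (99.2%). Counted from 1 at the 5′ end of the window and with the Cyp2b9 base first, the differences are T48C and C104T, in capitals here.
Cyp2b9: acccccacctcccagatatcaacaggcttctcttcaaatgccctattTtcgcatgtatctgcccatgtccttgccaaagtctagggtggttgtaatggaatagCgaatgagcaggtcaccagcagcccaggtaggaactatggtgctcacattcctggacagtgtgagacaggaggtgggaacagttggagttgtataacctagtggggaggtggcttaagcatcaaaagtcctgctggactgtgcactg
Cyp2b13: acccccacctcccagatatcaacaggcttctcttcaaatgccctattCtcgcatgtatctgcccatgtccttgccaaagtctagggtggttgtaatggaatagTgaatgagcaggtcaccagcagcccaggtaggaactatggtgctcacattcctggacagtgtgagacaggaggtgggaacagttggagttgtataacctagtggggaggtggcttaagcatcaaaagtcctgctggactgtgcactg

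Cyp2b10 was also called higher. Its controls ran from 2.52 to 4.10 (median 3.06) and the model samples from 3.40 to 6.65 (median 3.99), so the groups overlapped. NASH model 2 stood alone at 6.65, and the next model sample was at 4.46. The means were 3.15 ± 0.46 and 4.29 ± 1.02 (SD, n = 8 each), a difference of 1.14 ± 0.34 (SE) or 2.21-fold, adjusted p 0.0175. Without NASH model 2 and 7 it was 0.90 ± 0.20 with an adjusted p of 0.00322, and with the clock score as a covariate the call was lost (1.20 ± 0.52, adjusted p 0.144). Cyp2b23 was called higher, with 6 controls and 2 model samples below the floor, and was 1.20-fold higher with those samples raised to it. Cyp2b19 was below the floor in every sample.

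The Cyp2a subfamily had 3 genes called higher and 1 called lower of 4, with a median difference of 1.16. Cyp2a5 is the mouse coumarin hydroxylase, a bilirubin-oxidising enzyme that is known to rise in injured liver. Cyp2a4 is its near-identical paralog in the same cluster, a steroid hydroxylase that is higher in females. Cyp2a4 ran from 6.17 to 8.02 (median 6.65) in the controls and from 8.59 to 10.68 (median 8.98) in the model, with no overlap. Its means were 6.76 ± 0.57 and 9.18 ± 0.70 (SD, n = 8 each), and its difference of 2.42 ± 0.28 (SE) is 5.33-fold, adjusted p 1.95e-06. Cyp2a5 ran from 8.40 to 10.28 (median 9.0) in the controls and from 10.51 to 11.35 (median 10.86) in the model, again with no overlap. Its means were 9.0 ± 0.59 and 10.85 ± 0.26 (SD, n = 8 each), a difference of 1.85 ± 0.20 (SE) or 3.60-fold, adjusted p 1.06e-06.

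In both genes the highest control was control 5, at 8.02 for Cyp2a4 and 10.28 for Cyp2a5, where the next control was at 6.91 and 9.12. Control 5 also had a clock score of 2.54, above every model sample (1.06 to 2.38), while the other controls lay below all of them. With the clock score as a covariate the difference was 1.78 ± 0.37 for Cyp2a4 (3.43-fold, adjusted p 0.00303) and 1.10 ± 0.20 for Cyp2a5 (2.15-fold, adjusted p 0.000928). The part of collection time in these values was not tested. The remaining genes changed little: Cyp2a22 was called higher by 0.48, and Cyp2a12, a hydroxylase of steroids and bile acids, was called lower with a difference of -0.28 and not called without NASH model 2 and 7 (adjusted p 0.0920).

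The promoters of Cyp2a4, Cyp2a5 and Cyp2b10 are shown because all 3 hold the same 8 bases near the start of a gene that rose. Those letters, TTGCATAA in capitals here, match the motif searched for the clock-driven PAR bZIP factors such as Dbp (D-box, TTANGNAA, on the other strand). They also match the one searched for C/EBP factors (TTGCNNAA), so both motifs overlap at this place. The windows are the 250 bases before the RefSeq start in GRCm38.p6, all on the plus strand, at chr7:26306942-26307191, chr7:26835089-26835338 and chr7:25897408-25897657. The match lies 70 to 63 bases upstream of the start in Cyp2a4, 71 to 64 in Cyp2a5 and 58 to 51 in Cyp2b10.
Cyp2a4: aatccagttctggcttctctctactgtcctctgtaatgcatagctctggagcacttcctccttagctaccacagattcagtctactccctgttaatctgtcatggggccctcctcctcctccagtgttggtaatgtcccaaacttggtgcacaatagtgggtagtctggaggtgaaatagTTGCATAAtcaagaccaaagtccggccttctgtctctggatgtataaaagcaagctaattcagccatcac
Cyp2a5: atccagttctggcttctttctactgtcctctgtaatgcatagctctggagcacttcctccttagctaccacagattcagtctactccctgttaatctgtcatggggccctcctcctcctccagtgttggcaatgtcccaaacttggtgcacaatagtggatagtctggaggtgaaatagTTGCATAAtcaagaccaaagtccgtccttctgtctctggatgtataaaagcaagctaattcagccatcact
Cyp2b10: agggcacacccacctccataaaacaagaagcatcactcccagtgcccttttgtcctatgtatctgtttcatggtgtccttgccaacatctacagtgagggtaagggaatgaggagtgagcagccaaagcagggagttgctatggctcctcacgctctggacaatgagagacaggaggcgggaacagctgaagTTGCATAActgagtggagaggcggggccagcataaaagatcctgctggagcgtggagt

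RefSeq promoters were matched for 50 of the 59 members. Over the same 250 bases on both strands, the D-box letters were in 11 of these 50 (22.0%) and in 10.3% of 32851 RefSeq promoters. The C/EBP letters were in 13 (26.0%) and in 9.56% of all. By call, the D-box letters were in 4 of 13 matched higher members, 3 of 20 lower members and 4 of 17 not called. The C/EBP letters were in 6 of 13, 5 of 20 and 2 of 17. A match is a run of letters and not a measured site. Cyp2a4 and Cyp2a5 share 98.4% of the compared promoter bases, so their matches are not separate observations.

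Family 3 in the mouse consists of the Cyp3a genes, with Cyp3a11 as the main drug-inducible target of the pregnane X receptor. Of 9 genes, 5 were called higher and 2 lower, with a median of 0.35. Cyp3a11 ran from 8.25 to 10.27 (median 9.67) in the controls and from 10.87 to 11.37 (median 11.16) in the model. Every model sample exceeded every control, and the controls were the more scattered group. The means were 9.59 ± 0.65 and 11.14 ± 0.14 (SD, n = 8 each), a difference of 1.55 ± 0.21 (SE) or 2.93-fold, adjusted p 1.34e-05.

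Cyp3a44, Cyp3a41a, Cyp3a41b and Cyp3a16 are known as female-biased genes. Cyp3a44 ran from 1.76 to 3.99 (median 2.98) in the controls, 3 of them below the floor, and from 4.26 to 4.85 (median 4.50) in the model. Its groups did not overlap, and its difference was 1.57 ± 0.21 (SE), 2.96-fold or 2.62-fold with controls raised to the floor, from 2.95 ± 0.63 to 4.51 ± 0.18 (SD, n = 8 each), adjusted p 9.21e-06. Cyp3a41b ran from 4.80 to 5.57 (median 5.31) and from 5.87 to 7.10 (median 6.14), also without overlap. Its means were 5.24 ± 0.25 and 6.27 ± 0.41 (SD, n = 8 each), and the difference was 1.03 ± 0.16 (SE), 2.04-fold, adjusted p 5.96e-05. Cyp3a44, Cyp3a41b, Cyp3a41a and Cyp3a11 shared these extreme samples: control 4 was the lowest and control 10 the highest control. NASH model 3 was the highest model sample in each of them. Cyp3a41a was called higher by 0.64. Cyp3a16 was called higher, but none of its samples reached the floor and it gets no fold.

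The other Cyp3a genes did not rise. Cyp3a13, an enzyme found in liver and gut, ran from 8.29 to 9.23 (median 8.75) in the controls and from 8.11 to 8.65 (median 8.42) in the model. Its means were 8.77 ± 0.35 and 8.41 ± 0.22 (SD, n = 8 each), and its difference of -0.36 ± 0.14 (SE) was not called, adjusted p 0.0635. Cyp3a25 and Cyp3a59 were called lower with differences of -0.36 and -0.37 (adjusted p 0.0456 and 0.0391). Both calls were fragile, lost on leaving out 1 sample in 11 and 9 of 16 cases, and without NASH model 2 and 7 (adjusted p 0.139 and 0.101). Cyp3a57 had a difference of -0.23 and was not called.

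Genes of known sex bias lay in several subfamilies. The members listed as female-biased from general knowledge were Cyp2a4, Cyp2b9, Cyp2b13, Cyp3a16, Cyp3a41a, Cyp3a41b and Cyp3a44. All 7 were called higher, though Cyp3a16 was below the floor throughout and Cyp2b13 lost its call in several settings. The list was drawn up with results of these data known and is not complete, so this count supports nothing. Cyp2c40 and Cyp2c69, which are also known as female-biased, were called lower. Cyp2d9, listed as male-biased, was lower too. The labels give no sex, and a difference in sex between the groups was not tested.

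**Figure D2:**
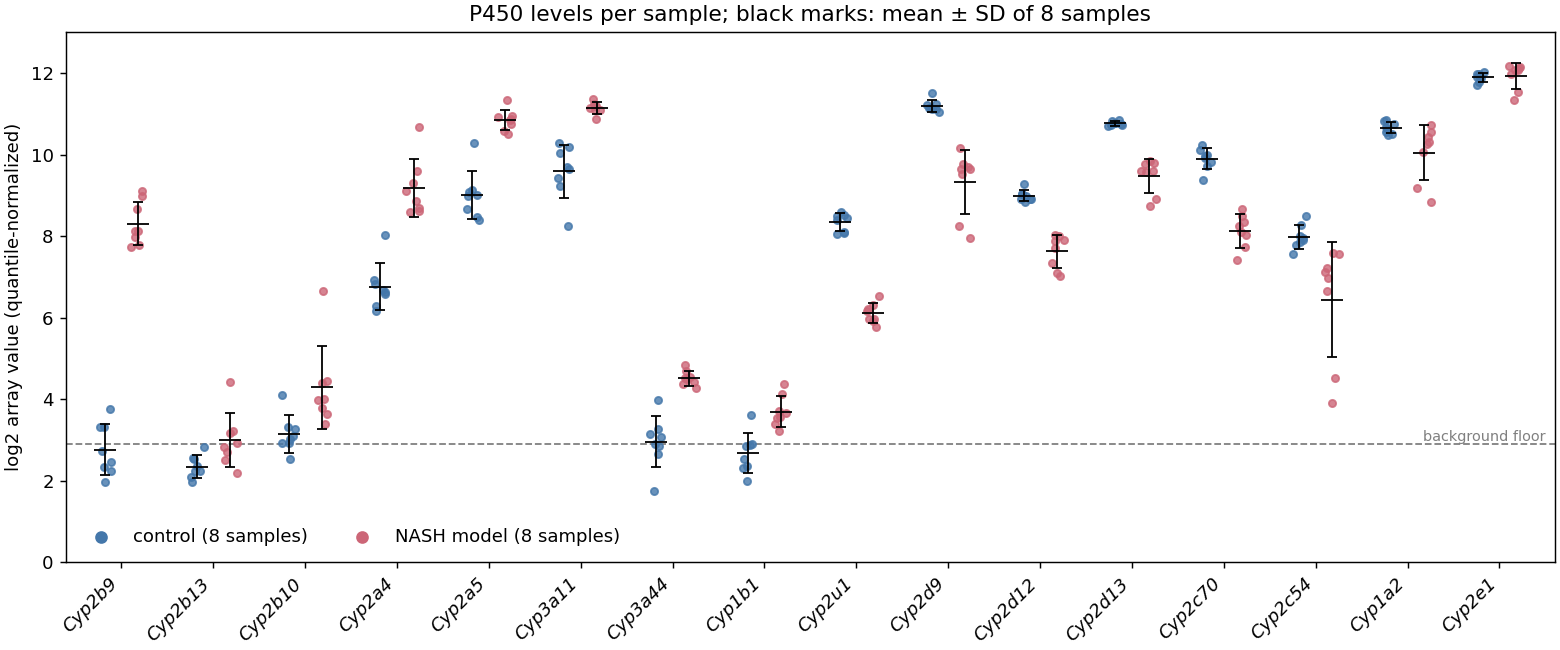
Log2 array value per sample (vertical axis) for 16 P450 genes, with controls in blue and NASH model samples in red. Points are samples, black marks are mean ± SD of 8 samples and the dashed line is the floor of 2.89. Cyp2b9 climbs from around the floor to between 7.72 and 9.09, Cyp2u1 drops without overlap, and 2 model samples hang below the rest in Cyp2c54, Cyp2d9 and Cyp1a2.

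The Cyp2d subfamily fell almost as a whole. Mouse Cyp2d genes encode hydroxylases of steroids and basic drugs. Of 9 genes 8 were called lower and 0 higher, with a median difference of -1.04. In 6 of them all model samples lay below all controls. Cyp2d9, the male-specific testosterone hydroxylase, changed most. It ran from 11.05 to 11.51 (median 11.14) in the controls and from 7.95 to 10.17 (median 9.64) in the model. The means were 11.19 ± 0.14 and 9.33 ± 0.79 (SD, n = 8 each), and it fell by 1.86 ± 0.25 (SE), 3.63-fold, adjusted p 1.17e-05. NASH model 2 and 7 were at 8.24 and 7.95, below the other model samples at 9.52 to 10.17. Without them the difference was -1.45 ± 0.11 with an adjusted p of 3.73e-08.

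Of the other Cyp2d genes that changed at least 2-fold, Cyp2d12 ran from 8.83 to 9.27 (median 8.95) in the controls and from 7.02 to 8.03 (median 7.80) in the model. It went from 8.98 ± 0.14 to 7.62 ± 0.41 (SD, n = 8 each), a difference of -1.36 ± 0.15 (SE), adjusted p 6.69e-07. Cyp2d13, which RefSeq lists as a transcribed pseudogene, ran from 10.71 to 10.86 (median 10.76) and from 8.73 to 9.84 (median 9.60). Its controls were the most tightly grouped of the named members, with 10.76 ± 0.05 against 9.48 ± 0.42 in the model (SD, n = 8 each). The difference was -1.29 ± 0.14 (SE), adjusted p 1.09e-06. A probe set for a pseudogene may also read its coding neighbours, and this was not tested.

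Cyp2d40 ran from 8.19 to 8.57 (median 8.43) in the controls and from 6.76 to 7.68 (median 7.33) in the model. Its means were 8.40 ± 0.15 and 7.31 ± 0.33 (SD, n = 8 each), a difference of -1.09 ± 0.13 (SE), adjusted p 1.78e-06. Cyp2d37-ps, a pseudogene by its symbol, ran from 8.45 to 8.96 (median 8.76) and from 6.83 to 8.18 (median 7.74). It went from 8.71 ± 0.16 to 7.67 ± 0.42 (SD, n = 8 each), a difference of -1.04 ± 0.15 (SE), adjusted p 2.47e-05. The groups did not overlap in any of these 4 genes. Without NASH model 2 and 7 the difference was -0.94 for Cyp2d40 and -0.84 for Cyp2d37-ps, both still called. Smaller calls were Cyp2d10 at -0.70 and Cyp2d22 at -0.38, and the latter was not called without NASH model 2 and 7 (adjusted p 0.0664). Cyp2d34 was called lower, but 7 of its 8 model samples and 2 controls were below the floor, so its size is not given.

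Cyp2d26 was the exception. It ran from 11.02 to 11.36 (median 11.15) in the controls and from 11.07 to 11.48 (median 11.33) in the model. Its means were 11.17 ± 0.11 and 11.29 ± 0.14 (SD, n = 8 each), and the difference of 0.11 ± 0.08 (SE) was not called, adjusted p 0.354. Unlike the other 8 Cyp2d genes, it did not have NASH model 2 and 7 as its lowest model samples, and NASH model 7 was its highest.

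The Cyp2c subfamily is the largest, and its enzymes epoxidise arachidonic acid and oxidise steroids and drugs. Of 14 genes 8 were called lower and 0 higher, with a median of -0.69. Cyp2c70, which makes the muricholic acids that set mouse bile apart, ran from 9.39 to 10.23 (median 9.94) in the controls and from 7.41 to 8.67 (median 8.17) in the model. No model sample reached the lowest control. The means were 9.89 ± 0.26 and 8.13 ± 0.41 (SD, n = 8 each), and it fell by 1.77 ± 0.16 (SE), 3.40-fold, adjusted p 7.68e-08.

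Cyp2c54 and Cyp2c37 are epoxygenases of polyunsaturated fatty acids. Cyp2c54 ran from 7.55 to 8.49 (median 7.93) in the controls and from 3.91 to 7.58 (median 7.04) in the model. Its mean went from 7.98 ± 0.29 to 6.44 ± 1.42 (SD, n = 8 each), a difference of -1.54 ± 0.44 (SE), 2.90-fold, adjusted p 0.0131. This size rested on 2 samples: NASH model 2 and 7 were at 4.53 and 3.91, and the others at 6.64 to 7.58. Without them it was -0.80 ± 0.16, 1.74-fold, with an adjusted p of 0.00162. With the clock score as a covariate it was -1.85 ± 0.66 and the call was lost (adjusted p 0.0734).

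Cyp2c37 ran from 8.08 to 8.91 (median 8.46) and from 5.87 to 8.23 (median 7.70). Its mean went from 8.48 ± 0.25 to 7.37 ± 0.91 (SD, n = 8 each), a difference of -1.11 ± 0.29 (SE), adjusted p 0.00718. The same 2 samples were lowest, at 6.05 and 5.87, and without them the difference was -0.64 ± 0.14 with an adjusted p of 0.00316. With the clock score as a covariate it was -1.30 ± 0.44 with an adjusted p of 0.0567, also not called. Cyp2c50, with a difference of -0.99, had them at 7.47 and 7.18 against 8.83 to 9.65 in the other model samples. Without them it was -0.48 with an adjusted p of 0.0119. With the clock score it was -1.11 ± 0.47 with an adjusted p of 0.128, not called.

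Cyp2c67 (-1.0), Cyp2c40 (-0.91) and Cyp2c69 (-0.89) were called lower with no overlap between the groups. Cyp2c66 was called lower by its values, but all its model samples were below the floor, so no fold is given. Cyp2c23, an arachidonic acid epoxygenase whose gene lies apart from the Cyp2c cluster, ran from 9.97 to 10.68 (median 10.24) in the controls and from 9.91 to 10.45 (median 10.26) in the model. The groups covered the same range, with means of 10.28 ± 0.29 and 10.22 ± 0.18 (SD, n = 8 each). Its difference was -0.06 ± 0.12 (SE), adjusted p 0.756. Cyp2c38 was not called (0.67 ± 0.32, adjusted p 0.143), but 1 library decided this. It was called higher without control 5 (0.86, adjusted p 0.0408) or without control 10 (0.88, adjusted p 0.0308), and its difference was -0.23 with the clock score as a covariate. The others not called were Cyp2c39 (-0.13), Cyp2c55 (-0.38), Cyp2c68 (-0.26) and Cyp2c65. In Cyp2c65, 3 controls and 8 model samples were below the floor, and the difference was -0.05 with them raised to it.

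Genes of opposite direction shared promoter letters. The 9 letters CAAAGTCCA, searched for the liver factor Hnf4a on both strands, were in 10 of the 50 matched members (20%) and in 0.384% of all RefSeq promoters. These were Cyp2c40, Cyp2c65, Cyp2c67, Cyp2c68, Cyp2c69, Cyp2c70, Cyp3a11, Cyp3a16, Cyp3a41a and Cyp3a41b. Of them 4 were called higher, all Cyp3a, 4 lower, all Cyp2c, and 2 were not called. Many of these promoters are near copies, such as Cyp3a41a and Cyp3a41b with 99.6% of compared bases in common and Cyp2c40 and Cyp2c69 with 98.6%. Cyp3a11, which rose, and Cyp2c70, which fell, are shown with the match in capitals, 109 to 101 and 64 to 56 bases upstream of the start. The windows are chr5:145879925-145879993 and chr19:40187312-40187380 in GRCm38.p6, both on the minus strand.
Cyp3a11: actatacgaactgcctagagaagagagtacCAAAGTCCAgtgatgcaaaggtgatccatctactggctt
Cyp2c70: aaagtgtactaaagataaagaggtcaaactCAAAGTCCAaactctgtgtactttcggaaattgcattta

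The STAT5 letters TTCNNNGAA were in 2 of 50 matched members (4.0%), Cyp2j11 and Cyp2j12, against 7.02% of all promoters. The core letters of the aryl hydrocarbon receptor element, GCGTG, were in 8 (16%) against 28.2% of all, among them Cyp1a1 and Cyp1b1. These counts cover only the 250 bases searched.

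Among the single-gene subfamilies, Cyp2u1 changed most. It encodes a fatty acid hydroxylase that is also found in brain and thymus. It ran from 8.04 to 8.60 (median 8.41) in the controls and from 5.77 to 6.53 (median 6.07) in the model, without overlap and with a similar spread in both. The means were 8.33 ± 0.22 and 6.11 ± 0.25 (SD, n = 8 each), and it fell by 2.23 ± 0.12 (SE), 4.68-fold, adjusted p 4.36e-11. NASH model 2 and 7 did not stand apart here, at 5.77 and 6.21.

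Cyp2e1, the ethanol- and paracetamol-oxidising enzyme of the hepatocytes around the central vein, was not called. It ran from 11.72 to 12.02 (median 11.90) in the controls and from 11.34 to 12.17 (median 12.07) in the model, with means of 11.89 ± 0.10 and 11.93 ± 0.31 (SD, n = 8 each). The difference was 0.04 ± 0.12 (SE), adjusted p 0.863. NASH model 2 and 7, at 11.55 and 11.34, lay below every control, and the other 6 were at 11.97 to 12.17. Without them it was 0.20 ± 0.08 with an adjusted p of 0.0849. Such bright probe sets lie close to the highest value in the table, 12.74, where arrays also compress differences.

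Cyp2f2, a naphthalene oxidase of periportal hepatocytes, ran from 11.29 to 11.65 (median 11.46) in the controls and from 10.42 to 10.998 (median 10.83) in the model. Its means were 11.45 ± 0.13 and 10.78 ± 0.21 (SD, n = 8 each), and its difference was -0.67 ± 0.10 (SE), adjusted p 3.21e-05. The groups did not overlap. Cyp2r1, the liver's vitamin D hydroxylase, ran from 5.12 to 6.07 (median 5.62) and from 4.61 to 5.27 (median 4.91). It went from 5.62 ± 0.29 to 4.92 ± 0.25 (SD, n = 8 each), a difference of -0.70 ± 0.13 (SE), adjusted p 0.000429, with some overlap.

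In the Cyp2j subfamily, which makes epoxides of arachidonic acid, 3 of 7 genes were called lower and 0 higher. Cyp2j5 ran from 10.54 to 10.73 (median 10.62) in the controls and from 9.49 to 10.05 (median 9.91) in the model. The means were 10.64 ± 0.07 and 9.84 ± 0.20 (SD, n = 8 each), a difference of -0.80 ± 0.09 (SE), adjusted p 1.37e-06, with no overlap. Cyp2j6 was called lower with a difference of -0.46. Cyp2j8 was called lower with no sample at the floor, and Cyp2j9 (-0.44) and Cyp2j13 were not called. In Cyp2j13, 6 controls and 8 model samples were below the floor, and the difference was -0.06 with them raised to it. Cyp2j11 and Cyp2j12 were below the floor.

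Members known mainly from other tissues were at or near the floor. Cyp2g1, an olfactory enzyme, ran from 1.74 to 3.04 (median 2.37) in the controls and from 1.93 to 2.87 (median 2.45) in the model. Its difference was 0.04 ± 0.17 (SE) from 2.34 ± 0.43 to 2.38 ± 0.30 (SD, n = 8 each), adjusted p 0.889. Cyp2s1, an enzyme of epithelia, ran from 1.87 to 2.67 (median 2.33) and from 1.98 to 3.06 (median 2.39). Its difference was 0.12 ± 0.15 (SE) from 2.33 ± 0.23 to 2.46 ± 0.40 (SD, n = 8 each), adjusted p 0.621. Neither was called.

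Cyp2t4 ran from 2.02 to 3.17 (median 2.34) in the controls, 7 of them below the floor, and from 1.64 to 2.30 (median 1.98) in the model, all below it. It was called lower, with means of 2.39 ± 0.35 and 1.98 ± 0.23 (SD, n = 8 each), a difference of -0.41 ± 0.14 (SE) and an adjusted p of 0.0377. No fold is given for it, and without NASH model 2 and 7 the adjusted p was 0.105. Cyp2w1, known from fetal gut and gut tumours, ran from 3.26 to 4.31 (median 3.57) and from 3.03 to 3.79 (median 3.26). Its difference was -0.40 ± 0.15 (SE), from 3.72 ± 0.37 to 3.32 ± 0.23 (SD, n = 8 each), and was not called at an adjusted p of 0.0517. Without NASH model 2 and 7 it was called lower (-0.47, adjusted p 0.0356).

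Family 1 holds the classical targets of the aryl hydrocarbon receptor, the sensor of dioxins and polycyclic hydrocarbons. Cyp1a1, its most inducible target, was below the floor in all model samples and in 7 of 8 controls. It ran from 1.66 to 2.92 (median 1.89) and from 1.54 to 2.25 (median 1.86), and its means were 1.97 ± 0.41 and 1.87 ± 0.26 (SD, n = 8 each). The difference was -0.10 ± 0.16 (SE), adjusted p 0.699.

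Cyp1a2, the caffeine-oxidising enzyme of central hepatocytes, ran from 10.49 to 10.85 (median 10.65) in the controls and from 8.84 to 10.71 (median 10.29) in the model. It went from 10.66 ± 0.14 to 10.05 ± 0.67 (SD, n = 8 each), a difference of -0.61 ± 0.22 (SE), adjusted p 0.0431. NASH model 2 and 7, at 8.84 and 9.18, again lay below the other model samples at 10.05 to 10.71. Without them the difference was -0.27 ± 0.11 and the adjusted p 0.0895, so much of its size came from these samples. The call was borderline and was also lost in 10 of 16 cases when 1 sample was left out, controls included.

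Cyp1b1, an enzyme found more in mesenchymal cells than in hepatocytes, rose. It ran from 2.0 to 3.60 (median 2.69) in the controls, 6 of them below the floor, and from 3.22 to 4.36 (median 3.61) in the model, all above it. Its means were 2.68 ± 0.49 and 3.69 ± 0.38 (SD, n = 8 each), and its fitted difference was 1.01 ± 0.20 (SE), adjusted p 0.000592. With each control raised to the floor it was at least 1.64-fold higher. Stellate cell and fibroblast markers were also higher in the model in 11 of 12 cases, and macrophage markers in 10 of 12. The part of such cells in the rise of Cyp1b1 was not tested.

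**Figure D3:**
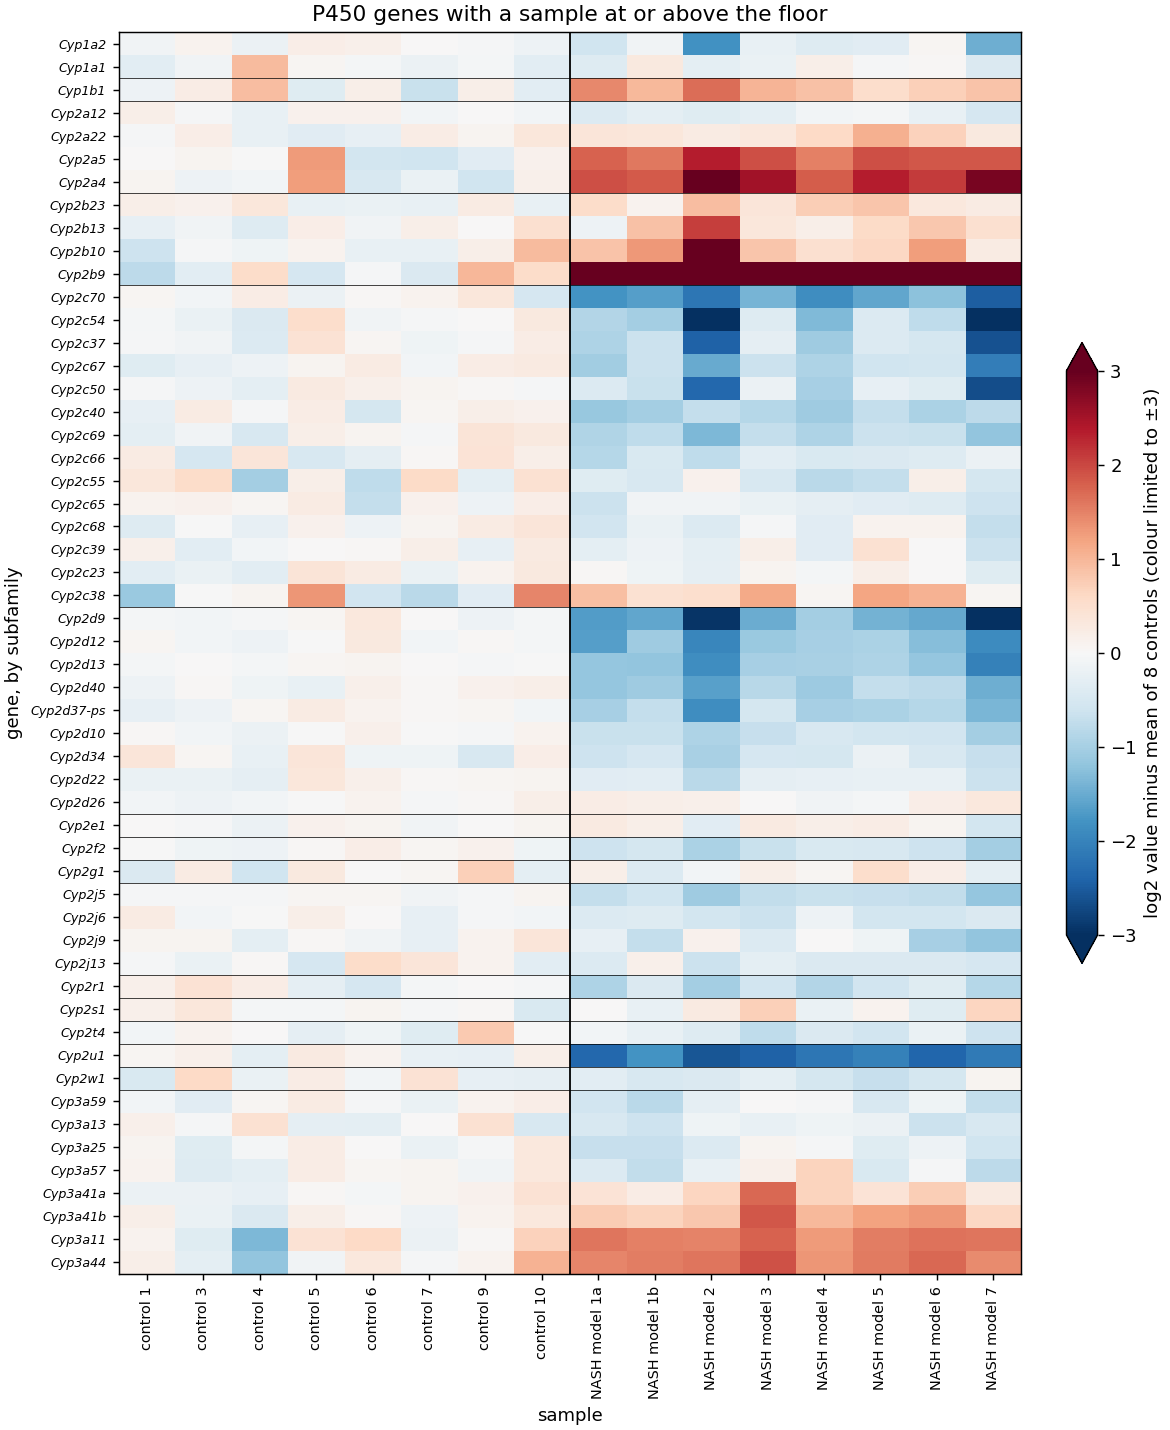
Log2 value minus the mean of the 8 controls (colour, limited to plus or minus 3) for the 54 P450 genes with a sample at or above the floor (rows, by subfamily) in the 16 samples (columns, controls left of the line). The Cyp2b9 row is red in all 8 model samples, the Cyp2d rows are blue apart from Cyp2d26, and NASH model 2 and 7 form darker columns in Cyp1a2 and in Cyp2c and Cyp2d rows but not in Cyp3a rows.

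NASH model 2 and 7 were not lower in every P450. Both were below the other 6 model samples in 8 of 9 Cyp2d genes and 7 of 14 Cyp2c genes, and in Cyp1a2, Cyp2a22, Cyp2e1, Cyp2f2, Cyp2j5 and Cyp2j13. They were so in 0 of 8 Cyp3a genes and 0 of 4 Cyp2b genes above the floor, and NASH model 2 had the highest value of Cyp2b9, Cyp2b10, Cyp2b13, Cyp2a4 and Cyp2a5. Over the 54 genes, the median SD was 0.25 in the controls and 0.30 in the model, and 34 of 54 had the larger SD in the model. Over all 15675 genes above the floor the medians were 0.28 and 0.24, and 6295 had the larger SD in the model. Without these 2 samples 12 members were called higher and 22 lower, and over all genes 2191 were higher and 2107 lower.

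Neighbouring genes differed in direction. The Cyp2a, Cyp2b, Cyp2f, Cyp2g, Cyp2s and Cyp2t genes lie in 1 cluster on chromosome 7. In RefSeq order the measured genes are Cyp2s1, Cyp2b10, Cyp2b13, Cyp2b9, Cyp2a4, Cyp2b23, Cyp2b19, Cyp2g1, Cyp2a5, Cyp2a22, Cyp2a12, Cyp2f2 and Cyp2t4. The 7 genes called higher were the second to the sixth and then Cyp2a5 and Cyp2a22, and the 3 called lower stood together at the end. In the Cyp3a cluster on chromosome 5, Cyp3a57 was not called, the next 5 genes from Cyp3a16 to Cyp3a11 were called higher, and the last 2, Cyp3a25 and Cyp3a59, were called lower. The Cyp2d cluster on chromosome 15 had 8 of 9 genes lower, and the Cyp2c cluster on chromosome 19 had 8 of 13 lower.

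**Figure D4:**
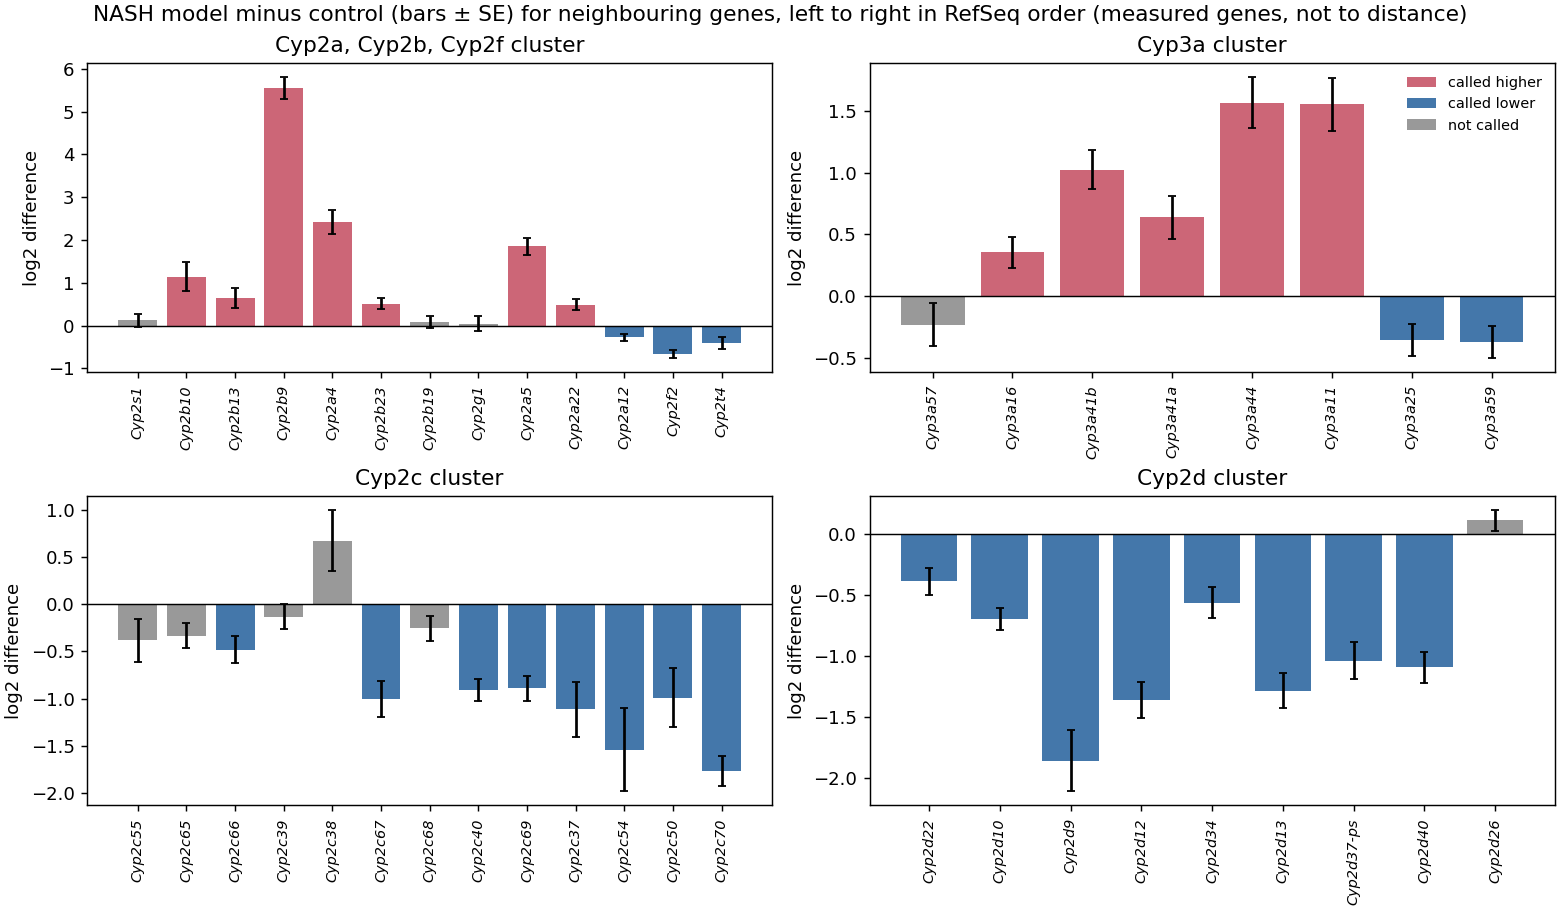
Log2 difference (NASH model minus control, bars, with SE) of measured neighbouring genes in RefSeq order in 4 P450 clusters, not to distance, each panel with its own vertical scale. Red bars are called higher, blue lower and grey not called. The Cyp2a and Cyp2b panel changes from higher to lower at Cyp2a12 and the Cyp3a panel does so at Cyp3a25.

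Among the regulators, 7 genes of the aryl hydrocarbon receptor pathway were measured. Of these, 1 was called higher and 2 lower, where 13.2% and 13.4% of all genes were. Counts this small say little about the pathway. The quinone reductase Nqo1, a target of this receptor and of Nrf2, went from 3.80 ± 0.49 to 5.91 ± 0.36 (SD, n = 8 each), a difference of 2.11 ± 0.19 (SE), adjusted p 1.04e-07. Tiparp, a target that represses the receptor, fell by 0.51, and its co-chaperone Ptges3 fell by 0.46. The receptor gene Ahr had a difference of -0.19 ± 0.20 (SE), adjusted p 0.538.

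Of 18 nuclear receptors and liver factors, 1 was called higher and 10 lower, where 13.2% and 13.4% of all genes were. Their median difference was -0.37. The pregnane X receptor gene Nr1i2 ran from 7.11 to 7.57 in the controls and from 6.54 to 7.83 in the model, with a difference of -0.02 ± 0.17 (SE), adjusted p 0.945. The constitutive androstane receptor gene Nr1i3 ran from 7.71 to 9.19 and from 7.07 to 9.20, with a difference of 0.07 ± 0.29 (SE), adjusted p 0.891. Hnf4a, a main regulator of hepatocyte genes, fell without overlap from 9.71 ± 0.20 to 9.05 ± 0.17 (SD, n = 8 each), a difference of -0.66 ± 0.10 (SE), adjusted p 5.40e-05. The corepressor gene Nr0b2 fell by 1.37 ± 0.16 (SE) and Onecut1 by 0.77 ± 0.25 (SE). The coactivator gene Ppargc1a rose by 0.67 ± 0.24 (SE), adjusted p 0.0470.

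Of 15 genes of electron and haem supply, a list that also holds genes of haem breakdown, 4 were called higher and 5 lower. The shares of all genes were 13.2% and 13.4%. The gene of haem oxygenase, Hmox1, which breaks down haem, rose by 2.04 ± 0.15 (SE), adjusted p 3.54e-09. Biliverdin reductase B (Blvrb), also of haem breakdown, rose by 0.92 ± 0.11 (SE), and Blvra by 0.63 ± 0.12 (SE). Alas1, a gene of haem synthesis, rose without overlap by 0.90 ± 0.16 (SE), adjusted p 0.000268. Pgrmc2 fell by 0.61 and cytochrome b5 reductase (Cyb5r3) by 0.54. The P450 reductase gene Por had no row in the table used and is not analysed here.

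Of 12 genes of growth hormone signalling and sex-biased control, 1 was called higher and 5 lower, where 13.2% and 13.4% of all genes were. The repressor gene Bcl6, which holds back female-biased genes in male liver, fell by 1.54 ± 0.37 (SE), adjusted p 0.00376, and varied widely among the controls, from 4.81 to 7.83. The growth hormone receptor gene Ghr fell without overlap by 0.92 ± 0.11 (SE), adjusted p 3.39e-06. Stat5b went from 5.88 ± 0.06 to 5.35 ± 0.12 (SD, n = 8 each), a difference of -0.53 ± 0.07 (SE), adjusted p 2.02e-05, without overlap. Trim24 rose by 0.84 ± 0.14 (SE).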

How the data were processed

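The labels' protocols state TRIzol extraction and the standard Affymetrix biotin labelling. The authors deposited log2 values for 29129 probe sets. The method that made them and the array's genome build are not given in the sources used here. The column medians ran from 3.52 to 3.66, so values were quantile-normalized over all probe sets. Probe sets named for several genes were then left out. Each gene took its probe set with the highest mean over 16 samples, and no member had more than 1. Groups were compared with limma 3.58.1 in R 4.3.3 (lmFit and eBayes, group as the only term, two-sided) with Benjamini-Hochberg adjustment over 19505 genes and a threshold of 0.05. The fit was tested on simulated data.

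The members and gene lists were chosen with earlier results of these data known. Full values are given for members called with a log2 difference of at least 1, for the member with the highest mean in each subfamily and for 13 members picked by name. In each pathway list the 2 largest called rises and falls are named, along with Ahr, Nr1i2, Nr1i3, Hnf4a, Stat5b, Alas1 and Blvra. Cyp2c29 and Cyp2ab1 are not analysed here, the second because its symbol falls outside the rule. The clock score projects each sample on the first within-group component of the clock genes. Promoter windows come from RefSeq (GRCm38.p6).

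The labels do not tie each sample to a separate animal; p-values therefore measure only the spread over these samples, which may be technical. NASH model 1a and 1b differed with an SD of 0.387 over genes, against 0.340 to 0.466 in 27 other model pairs, and were kept separate. No count depth applies, and the number of arrays limits the precision. Alternatives were other scalings, leaving out the dimmest 40% of genes, averaging a gene's probe sets, trend and robust options, array weights, 1a and 1b averaged, the omission of samples, a replicate block, the clock score as a covariate and an exact permutation test.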

Additional observations from a re-analysis of the deposited data

Results flagged for a closer look

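In 108 groups of 8 samples, 11 held a sample whose gap to the next exceeded Dixon's critical value for 8; chance gives about 1 in 20 groups. Control 5 stood high in Cyp2a4 (8.02, next 6.91) and Cyp2a5 (10.28, next 9.12), near-copies whose probe sets may share signal. NASH model 2 stood high in Cyp2b10 (6.65, next 4.46) and Cyp2b13 (4.43, next 3.22). Control 6 stood high in Cyp2d9 (11.51, next 11.24) and Cyp2d12 (9.27, next 9.03) and low in Cyp2c65 (2.10, next 2.65). NASH model 3 stood high in Cyp3a41a (5.46, next 4.47). Near or below the floor, control 4 stood high in Cyp1a1 (2.92, next 2.03), control 9 in Cyp2t4 (3.17, next 2.49) and NASH model 1b in Cyp2j13 (2.80, next 2.36).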

How the results depend on the processing

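No called member turned its direction in any of the 28 alternatives, 1 of which tested 32 of the 40. Of 40 called members, 32 kept their call whichever sample was left out, and the 8 others were Cyp1a2, Cyp2a12, Cyp2b13, Cyp2j8, Cyp2t4, Cyp3a16, Cyp3a25 and Cyp3a59. Those 8 also lost it in other settings. In at least 1 other setting apart from the clock score, Cyp2c50, Cyp2c66 and Cyp2d22 lost theirs too. Leaving out 1 sample gave 11 to 14 members higher, 22 to 27 lower and 4760 to 5122 genes called. The clock score as a covariate left 8 members higher, 16 lower and 2777 genes called, where 5196 were called without it. Besides the 11 genes named so far, Cyp2b10, Cyp2b23, Cyp2c37, Cyp2c54 and Cyp3a41a lost their call with it. Without control 5, Cyp2c38, Cyp2j13 and Cyp3a13 gained a call and Cyp1a2, Cyp2j8, Cyp3a25 and Cyp3a59 lost theirs. Without the dimmest 40% of genes, 9 members were higher and 26 lower, with fewer members tested. Over all genes kept there, 2423 were higher and 2746 lower. The unadjusted exact permutation p over samples, two-sided, ran from 0.00016, the smallest possible, to 0.0115 for the called members given in full. Of all genes called, 49.6% were higher, against 39.2% with array medians centred and 73.7% with centring on the hybridization spike-ins, which moved the median of all genes by 0.10. A replicate block on the label numbers gave 13 members higher, 20 lower and 3924 genes called. Same-numbered samples did not deviate together (correlations of -0.02 to 0.06 over 6 numbers). This cannot exclude a pairing behind the numbers, and the main fit treated the samples as unpaired. Genes near the floor, and bright ones such as Cyp2e1, have compressed differences.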
